A study of Mus musculus with 6 samples.

Results

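The 4 control libraries of this series describe the mouse lateral cortex at embryonic day 12.5 (E12.5), early in cortical neurogenesis. They were chosen by their labels alone, as the 4 of 6 samples labelled Cre-negative, and every one of the 17068 genes of the deposited count table was described in them. All 4 came from female embryos of the strain c57/bl6. Controls 1, 2 and 4 carried 1 floxed allele (Foxp1 fl/+) and control 3 carried a floxed allele on both chromosomes (Foxp1 fl/fl). With no Cre recombinase, no Foxp1 was deleted in any of them. In the study these embryos served as the reference for embryos in which Emx1Cre, which is active in cortical progenitors, deletes Foxp1. No value of the 2 libraries of those embryos is given below. The authors' choice of genes and 1 set of alternative values were made over all 6 samples. The litter of each embryo is not in the labels, and the spread given below is that between these 4 libraries, whether biological or technical.

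At this age the wall of the cortex holds radial glia, the stem cells that line the ventricle, and the cells they give rise to. Radial glia divide either to renew themselves or to make intermediate progenitors, which divide again into neurons, and the first neurons settle in the preplate and the deep layers. The lateral cortex borders the ventral telencephalon, which makes inhibitory interneurons that migrate into the cortex. Blood vessels with their circulating cells, the meninges at the surface and the first microglia share the dissected tissue. In such bulk RNA, fewer cells of a type and less RNA per cell cannot be told apart.

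The libraries held 61638394, 63181214, 73499617 and 78346979 counts in controls 1 to 4. Levels are given as CPM, a gene's counts divided by the library's size and brought to one common total, on library sizes scaled by edgeR's TMM method, whose factors ran from 0.98 to 1.02. A floor of 3 counts corresponded to 0.0375 to 0.0484 CPM. This floor allows for counting error alone, because PCR copies of a molecule are counted as separate reads. Controls 3 and 4 stood apart. On the first principal component, which held 63.5% of the variance of log2 CPM, the scores were 13.1 and -8.41 for controls 1 and 2, -37.0 for control 3 and 32.3 for control 4. The median absolute difference of a gene was 0.12 on the log2 scale between controls 1 and 2 and 0.28 between controls 3 and 4. The genotype of control 3 differs from that of the others, and genotype and library cannot be told apart. For many lists, though not for all, the range of list level is also given without control 3 or 4. A count of genes highest or lowest in a library exists only with that library.

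Foxp1 itself, the transcription factor gene that carries the floxed allele, had 59.4, 61.0, 71.4 and 77.8 CPM in controls 1 to 4. It ranked 4172 of 17068 genes by mean CPM, and the library with both alleles floxed lay between the others. The tissue label was checked against markers. Pax6, a transcription factor of radial glia, had 214, 237, 172 and 242 CPM. Eomes, which marks intermediate progenitors, had 335, 376, 273 and 252 CPM. Tbr1, which marks the first cortical neurons, had 347, 491, 384 and 247 CPM. All 3 were among the higher genes by mean CPM, at percentiles of 94.7, 97.0 and 97.9, and none was near the floor in any library. Sox2 and Tubb3 were not analysed here.

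The counts were spread over many genes. Of the 17068 genes, 13765 had a mean of at least 1 CPM, 10061 of at least 10 CPM, 2766 of at least 100 CPM and 50 of at least 1000 CPM. The median gene had 19.5 CPM. The 50 genes of at least 1000 CPM held 8.85% of all counts. With genes ranked by mean share over the 4 libraries, the 10 highest held 3.55% and the 1000 highest 42.5%. Ranked within each library, these shares had SDs of 0.135 and 0.337 (n = 4). By mean share, 1410 genes were needed to reach 50% of the counts. No library was dominated by a few transcripts, and the 4 cumulative curves lay almost on one another.

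**Figure D1:**
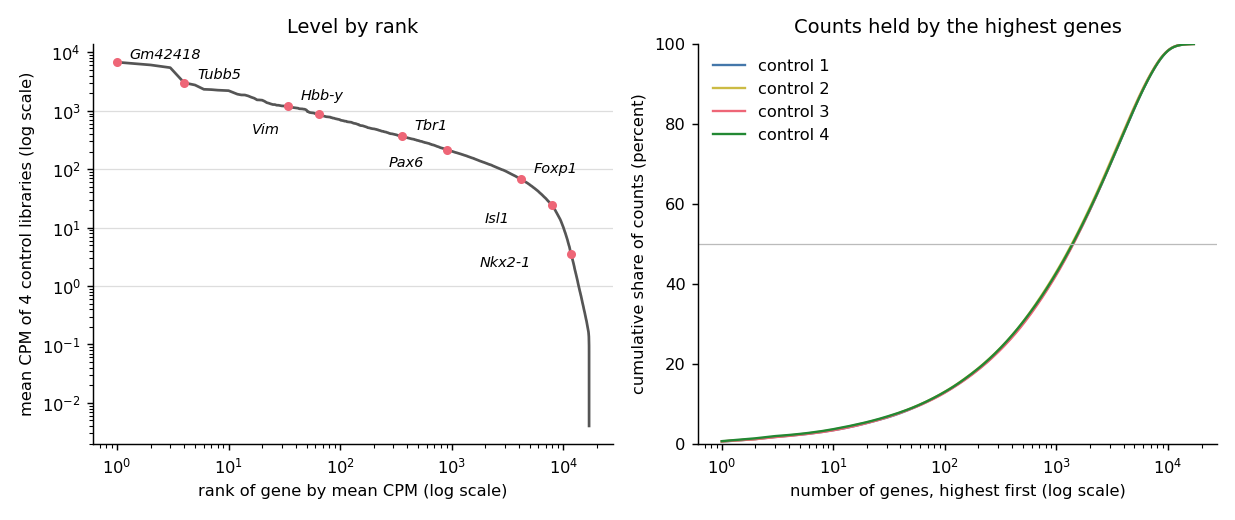
Left, mean CPM of each gene over the 4 control libraries against its rank, both on log scales, with 9 genes marked. Right, the cumulative share of counts, in percent, held by the highest genes of each library, with a line at 50%. The curves of the 4 libraries nearly coincide and cross 50% at 1374 to 1417 genes.

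Protein-coding genes held 97.3% ± 0.122 (SD, n = 4) of the counts and long intergenic noncoding genes 1.82% ± 0.0786. The gene of most counts was nevertheless noncoding. Gm42418 (chromosome 17, 39846958 to 39848788) had 6218, 6893, 6844 and 7278 CPM. This model lies where the genome holds ribosomal RNA sequence, so its reads cannot be assigned to a messenger RNA. Eef1a1, which brings aminoacyl-tRNA to the ribosome, followed with 6124, 6068, 5289 and 6919 CPM. mt-Co1, a cytochrome oxidase subunit encoded in mitochondria, had 5166, 5782, 5543 and 5437 CPM. Tubb5, a beta tubulin of dividing and young cells, had 3127, 3179, 3067 and 2712 CPM. The next 16 genes by counts were mt-Cytb, Eif4g2, Nedd4, Eef2, Hsp90ab1, Map1b, Xist, mt-Nd1, Cmss1, Hnrnpa2b1, Tubb2b, Actb, Ddx5, Ccnd2, Hnrnpu and Ctnnb1, with means of 2768 to 1522 CPM. Many of them serve translation, the cytoskeleton, protein folding or RNA processing, and Ccnd2 is a cyclin of cortical progenitors that drives cells out of G1. Xist, the noncoding RNA of the inactive X chromosome, had 1923, 1923, 2245 and 2166 CPM, as female tissue has.

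Counts favour long transcripts, so levels of different genes were compared per length of exon, as TPM, which sums to the same total in every library. On that scale Gm42418 stayed first with 15972 TPM, before mt-Co1 with 15241, Eef1a1 with 10506, mt-Cytb with 10393 and mt-Nd1 with 8652 TPM. Hbb-y, the embryonic beta-like globin, was the sixth with 8068 TPM and an SD of 4987 TPM, the largest SD relative to the mean among the first 10. Cmss1, Tubb5, Ptma and Tubb2b completed them. The ratio of the highest to the lowest library was 3.04 for Hbb-y and at most 1.47 for each of the other 9. Cmss1 spans a long stretch of chromosome 16, and with the counting strand not given, reads from overlapping models cannot be separated from its own.

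Of 37 gene families defined by their symbols, cytosolic ribosomal proteins held the largest share of counts among those of named function, at 2.36% ± 0.356 (SD, n = 4). The 353 zinc finger genes named Zfp held 1.70% ± 0.0317, hnRNP proteins of RNA processing 1.38% ± 0.0905, and mRNAs encoded in mitochondria 1.28% ± 0.0521. Gene models named Gm or ending in Rik were the most numerous with 2876 genes and 2.55% of the counts, of which Gm42418 is the highest member. Translation initiation factors held 1.13%, solute carriers 0.980%, elongation factors 0.935%, heat shock proteins 0.670%, nuclear subunits of the respiratory chain 0.653%, kinesins 0.627% and alpha and beta tubulins 0.564%. Per length, ribosomal proteins reached 5.95%, mitochondrial mRNAs 4.27% and hemoglobins 1.12% of all TPM, and the share of Zfp genes was 1.29%.

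**Figure D2:**
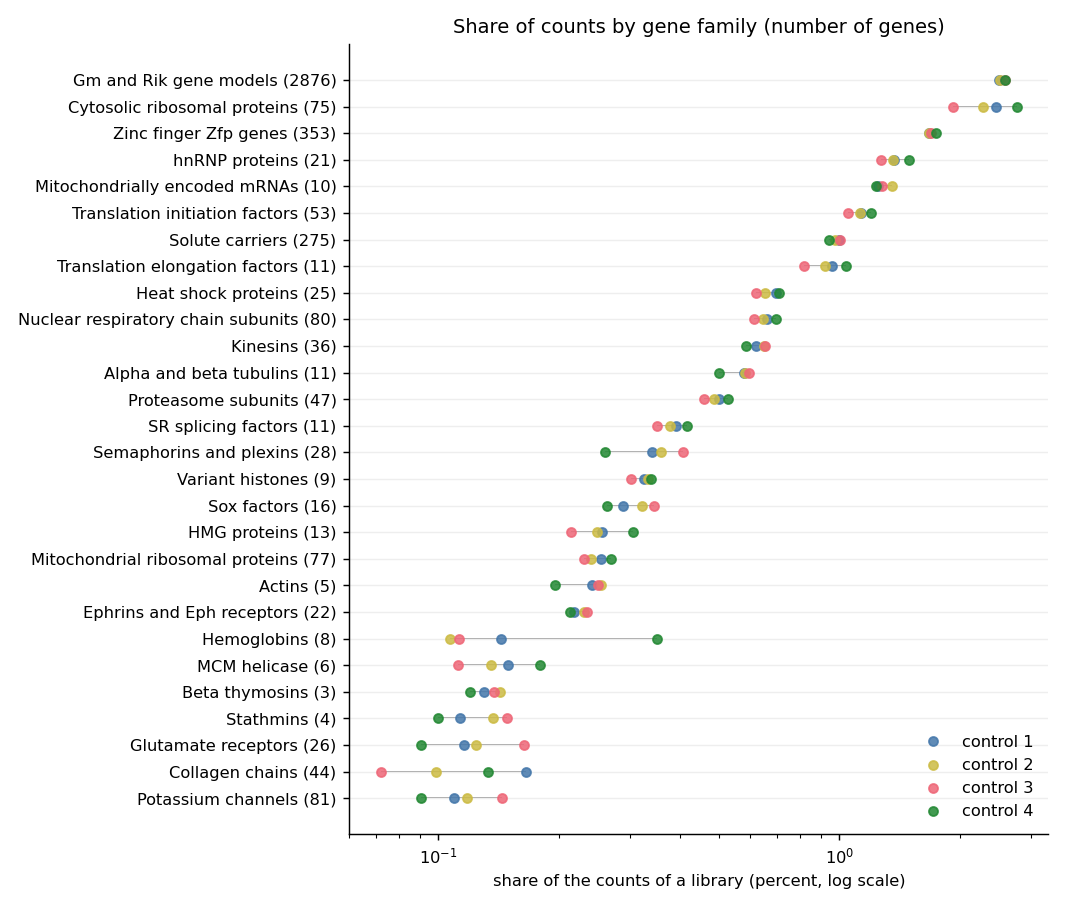
Share of the counts of each control library, in percent on a log scale, held by each gene family of at least 0.1%, with the number of genes in the table beside its name. Points are libraries and lines join the lowest and the highest. Zfp genes and mitochondrial mRNAs lie close together across libraries, and hemoglobins spread from 0.107% to 0.352%.

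The 75 cytosolic ribosomal proteins moved as a block between libraries. Their share was 2.46%, 2.28%, 1.92% and 2.77% in controls 1 to 4. All 75 were highest in control 4 and all 75 lowest in control 3, where 34.5% and 34.2% of all 13765 genes of at least 1 CPM were highest and lowest in these libraries. Rplp0, a protein of the ribosomal stalk with the most counts in the family, had 1032, 941, 777 and 1112 CPM. Rps2 had the largest spread, with 498, 444, 362 and 656 CPM. The ratio of control 4 to control 3 ran from 1.20 to 1.81 over the 75 genes with a median of 1.37, so the movement was small but shared. Their list level, the mean log2 CPM over members, ranged over 0.47 between libraries, and over 0.21 without control 3. By comparison, mitochondrial ribosomal proteins ranged over 0.20.

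Mitochondrially encoded mRNAs kept a similar share in the 4 libraries. It was 1.25%, 1.35%, 1.28% and 1.23%, with none of the 7 members of at least 1 CPM in the top 10% of spread for genes of their level, a class that holds 10% of all genes by construction. Within the family the levels were uneven. mt-Co1 had 15241 TPM, mt-Nd2 3280 TPM and mt-Nd6, the light-strand subunit, 436 TPM. The counts listed for mt-Co2, mt-Co3 and mt-Atp6 were far lower, with mean levels of 0.354, 0.466 and 0.188 CPM. These genes have near-identical copies in the nuclear genome. The study kept uniquely mapped reads, so reads that match a copy equally well may be missing, and the levels of these genes are uncertain. The 77 nuclear subunits of the respiratory chain of at least 1 CPM had a median SD of 0.08 on the log2 scale, and 0 of them were in the top 10% of spread.

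Hemoglobins were the family that differed most between libraries for its abundance. Its share was 0.144%, 0.107%, 0.113% and 0.352% in controls 1 to 4, the highest 3.17 times the lowest in summed CPM. At E12.5 red cells from the yolk sac still carry embryonic globins, and the fetal liver begins to supply adult ones. Hbb-y had 929, 757, 777 and 2302 CPM. Hba-x, the embryonic alpha-like globin, had 111, 80.5, 90.1 and 550 CPM, and Hbb-bh1, an embryonic beta-like globin, had 14.7, 9.59, 11.2 and 113 CPM. Each of these 3 embryonic genes was highest in control 4, with the other libraries close together. The adult gene Hba-a1 had 158, 110, 122 and 267 CPM, and the adult gene Hbb-bs had 109, 68.1, 72.0 and 81.3 CPM, highest in control 1. All 7 hemoglobins of at least 1 CPM were in the top 10% of spread. The other erythroid genes followed. Slc4a1, the band 3 protein of the red cell membrane, had 22.2, 15.2, 17.2 and 70.6 CPM, and Alas2, the first enzyme of heme synthesis in red cells, had 21.5, 13.7, 13.5 and 39.8 CPM. Of the 10 erythroid genes of at least 1 CPM, 9 were highest in control 4, against 34.5% of all genes. The list level ranged over 1.69 on the log2 scale, and over 0.52 without control 4. Hba-a1 and Hba-a2, and Hbb-bs and Hbb-bt, are near-identical pairs, and the split of reads within a pair is uncertain.

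The start regions of 4 hemoglobin genes are shown to let their letters be compared. Hbb-y, Hba-x and Hba-a1 were highest in control 4 and Hbb-bs in control 1. RefSeq (GRCm38.p6) gave a start region for 6 of the 7 genes. Each line holds 110 bases before the annotated start and the first 10 bases of the transcript, 5′ to 3′ on the coding strand, for Hbb-y (chr7:103853198-103853317, minus strand), Hba-x (chr11:32276490-32276609, plus), Hba-a1 (chr11:32283562-32283681, plus) and Hbb-bs (chr7:103827919-103828038, minus). Capitals mark the letters CACCC, the letters CCAAT and the letters ATANAA, where N is any base, on either strand.
Hbb-y: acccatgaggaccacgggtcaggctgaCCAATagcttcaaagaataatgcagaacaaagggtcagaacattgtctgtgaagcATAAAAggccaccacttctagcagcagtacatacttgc
Hba-x: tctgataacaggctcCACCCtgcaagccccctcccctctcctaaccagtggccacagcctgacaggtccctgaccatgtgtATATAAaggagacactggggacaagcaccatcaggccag
Hba-a1: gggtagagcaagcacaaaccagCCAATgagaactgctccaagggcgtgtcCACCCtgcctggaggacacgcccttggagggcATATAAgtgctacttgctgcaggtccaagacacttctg
Hbb-bs: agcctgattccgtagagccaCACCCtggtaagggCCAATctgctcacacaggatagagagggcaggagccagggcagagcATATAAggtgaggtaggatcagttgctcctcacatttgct
In the 32851 RefSeq start regions of this length, the letters CACCC were found in 31.4%, the letters CCAAT in 21.2%, the letters ATANAA in 17.1% and all 3 in 0.858%. The regions of Hba-a1 and Hbb-bs held all 3. That of Hbb-y held all but CACCC, and that of Hba-x all but CCAAT. In each of these 4 regions ATANAA was the match nearest to the start. The letters are a description of these windows and were not tested for binding.

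Progenitor genes were abundant and differed modestly. Of 12 radial glial markers, 11 were in the table, with levels of 64.6 to 926 TPM. Fabp7, a lipid carrier of radial glia, had 926 TPM, Vim, an intermediate filament, 797 TPM, Nes, the filament of neural stem cells, 501 TPM and Pax6 79.2 TPM. Nes had 735, 786, 637 and 838 CPM. Notch1, the receptor that holds cells in the progenitor state, was one of the steadiest markers with 286, 315, 311 and 313 CPM. Hmga2, a chromatin protein of young stem cells, was the most variable with 120, 156, 118 and 285 CPM, and Hes1, a Notch target, had 33.1, 28.4, 18.1 and 43.1 CPM. Of the 11, 8 were highest in control 4 and 7 lowest in control 3, against 34.5% and 34.2% of all genes. Only Fabp7 was lowest in control 4, with 253, 334, 287 and 204 CPM, so the list did not move as a whole.

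Intermediate progenitor genes showed another order. All 8 markers were in the table, 4 highest in control 1 and 4 in control 2, where 15.5% and 16.1% of all genes were highest in these libraries. Per length Neurog2, the proneural factor of cortical progenitors, led with 420 TPM, before Eomes with 319 TPM. Neurog2 had 246, 245, 173 and 207 CPM. Insm1, a factor of basal progenitors, had 86.4, 128, 102 and 70.8 CPM, and Sstr2, a somatostatin receptor of the same cells, had 88.7, 78.2, 68.4 and 43.1 CPM. The list ranged over 0.46 on the log2 scale, similar to the 0.47 of radial glia, and Mfng, a modifier of Notch, kept within 99.4 to 116 CPM.

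Genes of newborn neurons varied the most among the lists of the cortex's own main cell classes. Of 12 markers 11 were in the table, and all 11 were in the top 10% of spread. All 11 were lowest in control 4, where 35.3% of all genes were lowest, and 9 were highest in control 3, where 33.8% of all genes were highest. Dcx, which binds microtubules in migrating neurons, had 1141, 1499, 1713 and 765 CPM. Map2, a dendritic microtubule protein, had 1114, 1291, 1525 and 930 CPM, and Stmn2, a regulator of neurite growth, had 237, 315, 371 and 213 CPM. Controls 1 to 3 lay above control 4 for each of the 3. The exceptions in control 3 were transcription factors of the glutamatergic lineage. Neurod6 had 529, 523, 429 and 268 CPM, highest in control 1, and Neurod2 had 248, 275, 255 and 128 CPM, highest in control 2. Nefl, the light neurofilament of mature axons, was the most variable with 10.5, 12.1, 30.9 and 9.89 CPM. The ratio of control 3 to control 4 had a median of 1.99 over the 11 genes, and the list level ranged over 1.02, over 0.68 without control 3 and over 0.57 without control 4.

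Presynaptic genes moved with the neuronal genes. All 15 were lowest in control 4 and 12 were highest in control 3, with 13 in the top 10% of spread. Of all genes, 35.3% were lowest in control 4 and 33.8% highest in control 3. Syt1, the calcium sensor of vesicle release, had 61.3, 89.0, 107 and 46.4 CPM. Snap25, of the fusion complex, had 99.7, 107, 147 and 64.8 CPM. Slc17a6 and Slc17a7 load vesicles with glutamate. Slc17a6 had 132, 162, 141 and 112 CPM and Slc17a7 had 59.6, 55.8, 52.2 and 30.0 CPM, neither highest in control 3. The list level ranged over 0.96, and over 0.44 without control 4. Families of neuronal surface proteins showed the same order. Of 25 glutamate receptor genes of at least 1 CPM, 21 were highest in control 3 and 13 were in the top 10% of spread, and the family level ranged over 1.00, or 0.55 without control 3. Of 28 semaphorin and plexin genes, which guide axons, 22 were highest in control 3 and 22 lowest in control 4, and the level ranged over 0.67, or 0.46 without control 3 and 0.33 without control 4.

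The cell cycle moved the opposite way. All 19 S phase genes and all 20 G2/M genes were highest in control 4 and lowest in control 3, against 34.5% and 34.2% of all genes. Mki67, a protein of dividing cells, had 1141, 1104, 988 and 1316 CPM. Top2a, which untangles replicated DNA, had 1104, 1078, 962 and 1319 CPM. Mcm7, of the replicative helicase, had 344, 318, 264 and 395 CPM. The size of the difference was moderate. The ratio of control 4 to control 3 had a median of 1.52 in S phase genes and 1.40 in G2/M genes, and 4 of 19 and 1 of 20 were in the top 10% of spread. The S phase level ranged over 0.61, over 0.39 without control 3 and over 0.34 without control 4, and the G2/M level over 0.52, 0.30 and 0.29 in the same order. The list level of newborn neurons minus that of S phase genes was 0.53, 0.88, 1.44 and -0.20 in controls 1 to 4. Against G2/M genes the difference was -0.20, 0.10, 0.66 and -0.89. Both were highest in control 3 and lowest in control 4, and their sign depends on the genes listed. Replication-dependent histones, whose messages lack a poly(A) tail, held only 0.0122% of the counts, and 8 of their 48 genes reached 1 CPM.

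**Figure D3:**
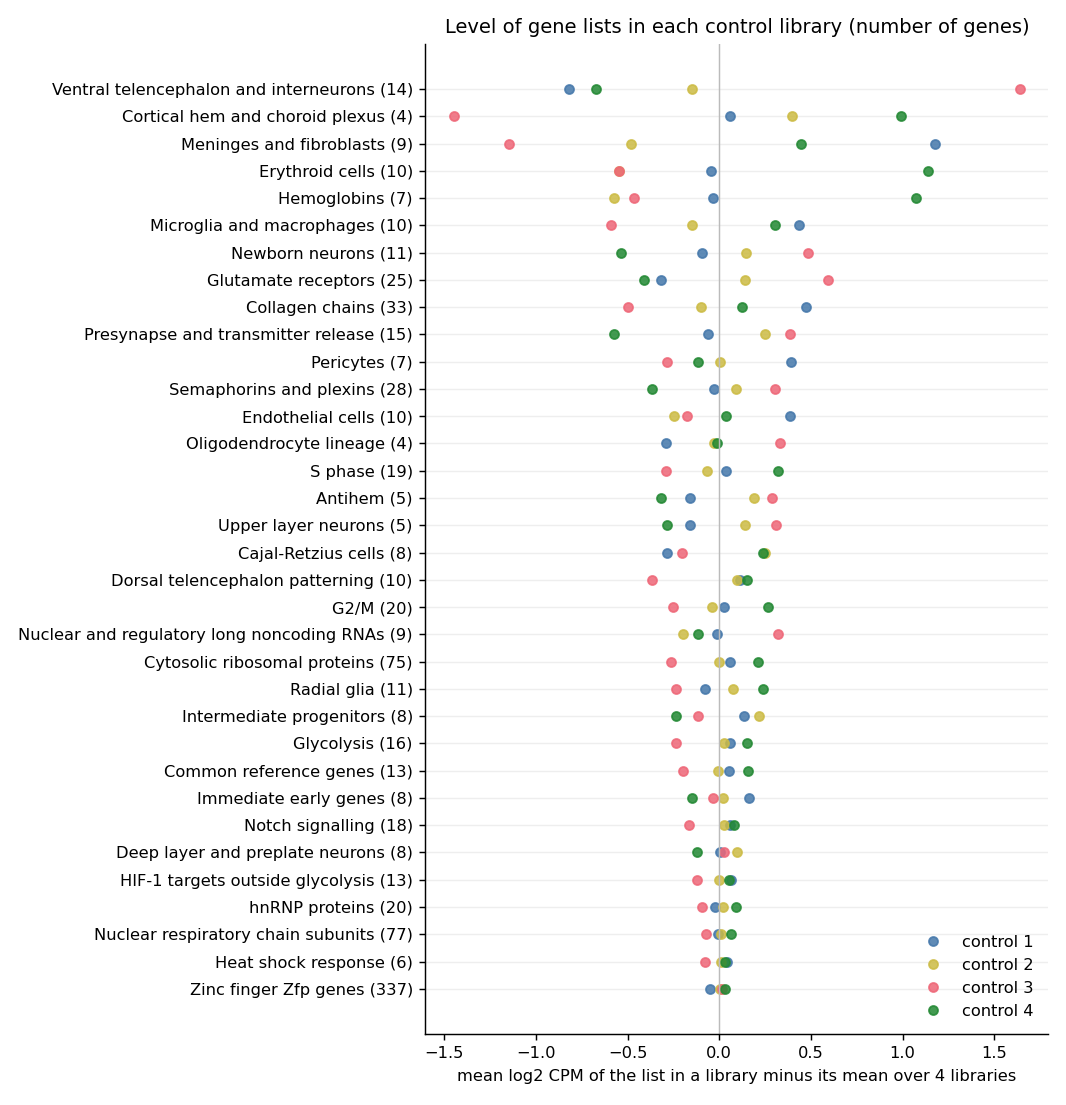
Mean log2 CPM of the members of each gene list or family in each control library, minus its mean over the 4 libraries, ordered by range, with the number of members of at least 1 CPM. Control 3 lies at the right end for ventral telencephalon and newborn neurons and at the left end for meninges, S phase and ribosomal proteins. Control 4 lies at the right end for erythroid cells and at the left end for newborn neurons.

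Genes of the cortical layers had a wide span of levels. Among deep layer and preplate genes, 8 of 10 were in the table, and per length Tbr1 led with 288 TPM. Bcl11b, a factor of subcortical projection neurons, had 268, 339, 388 and 201 CPM, and Sox5, of the same neurons, had 286, 263, 303 and 162 CPM. Fezf2, which specifies them, had 107, 87.2, 64.1 and 76.4 CPM, an order that differed from that of Bcl11b. The list level ranged over only 0.22, although 5 of the 8 genes were in the top 10% of spread. Of the 8, 3 were highest in control 3 and 3 in control 4, where 33.8% and 34.5% of all genes were highest. Of 5 upper layer genes, Cux1 had the smallest SD, with 236, 263, 264 and 281 CPM. The list had 3 of the 5 in the top 10% of spread, and its level ranged over 0.59. Reln, the signal of Cajal-Retzius cells at the surface, had 321, 395, 331 and 322 CPM. Calb2, a calcium-binding protein of these cells, had 4.53, 16.4, 5.64 and 16.5 CPM, separating controls 2 and 4 from controls 1 and 3.

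Ventral telencephalic genes had the widest range of list level of all lists, and it was set by control 3. All 14 markers were highest in control 3, against 33.8% of all genes, and all 14 were in the top 10% of spread. Their summed level ran from 297 to 1043 CPM and the list level was 2.98, 3.65, 5.45 and 3.13. Dlx1, a factor of interneuron precursors, had 58.8, 98.0, 188 and 73.2 CPM. Gad2, which makes GABA, had 57.5, 83.9, 250 and 73.7 CPM. Isl1, a factor of striatal and cholinergic neurons, had 6.61, 12.2, 64.8 and 13.8 CPM. These 3 genes were well above the floor in every library. Genes of the medial ganglionic eminence, the most ventral source, were low outside control 3. Lhx8 had 2, 4, 845 and 20 counts in controls 1 to 4, and Nkx2-1 had 19, 37, 961 and 17 counts, or 0.305, 0.597, 13.2 and 0.212 CPM. Lhx6, which interneurons keep while they migrate, had 15.2, 17.7, 54.8 and 6.72 CPM. Without control 3 the list level ranged over 0.67 in place of 2.46, and 9 of the 14 genes remained in the top 10% of spread of the other libraries. The part of these genes in the other results of control 3 was not tested.

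Dorsal patterning genes took the opposite position in the same library. Lhx2, which selects cortical fate, had 488, 381, 258 and 604 CPM. Emx1, which drives the Cre of the study's mutants, had 117, 109, 69.1 and 133 CPM, and Emx2, which patterns the cortical area map, had 83.4, 77.2, 42.5 and 119 CPM. Each was lowest in control 3 and highest in control 4. Nr2f2, a nuclear receptor of caudal and ventral origin, went the other way with 57.6, 73.6, 94.7 and 18.6 CPM. Of the 10 patterning genes 9 were in the top 10% of spread, 7 were highest in control 4, against 34.5% of all genes, and 6 lowest in control 3, against 34.2%. The list level was 6.71, 6.69, 6.23 and 6.75, and ranged over 0.06 without control 3 in place of 0.52.

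Genes of the borders of the cortex had uneven levels. Of the antihem, at the lateral border, Nrg1, a growth factor that signals through ErbB receptors, had 81.2, 72.4, 118 and 87.5 CPM. Sfrp2, a Wnt inhibitor, had 25.6, 29.5, 24.2 and 24.6 CPM, and Dbx1, which marks the same border, stayed under 2.5 CPM. Hem and choroid plexus genes, of the medial border, had 6 of 10 members in the table and none of at least 10 CPM. Wnt8b, the most variable of them, had 74, 538, 4 and 258 counts, or 1.19, 8.69, 0.0551 and 3.22 CPM. Msx1, a target of BMP signals, had 7.48, 1.71, 1.10 and 4.25 CPM. The 4 members of at least 1 CPM had a list level of 1.20, 1.54, -0.30 and 2.13, which ranged over 2.44, and over 0.93 without control 3. Otx2 alone was not low in control 3, with 4.17, 7.04, 7.98 and 9.57 CPM.

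Cells from outside the neural lineage left small but variable traces. Of 10 meningeal and fibroblast genes, 9 reached 1 CPM. All 9 were highest in control 1, against 15.5% of all genes, and 8 were lowest in control 3, against 34.2%. The list level ranged over 2.32, over 1.60 without control 1 and over 1.66 without control 3. Their summed level ran from 101 to 586 CPM. Col3a1, a fibrillar collagen, had 293, 99.5, 52.5 and 200 CPM, and Col1a1 had 93.9, 20.7, 13.1 and 53.5 CPM. The collagen family as a whole had 17 of 33 genes of at least 1 CPM in the top 10% of spread, and its highest member was Col4a1 of vessel basement membrane with 270, 187, 146 and 213 CPM. Endothelial genes moved less. Of 10, 9 were highest in control 1. Kdr, the VEGF receptor, had 69.1, 47.9, 45.4 and 48.6 CPM, and Pecam1, a junction protein, had 30.2, 21.5, 23.3 and 28.0 CPM. Pericyte genes were also highest in control 1 for 5 of 7 members. None of the 26 genes of these 3 lists was lowest in control 1, where 16.7% of all genes were, and 5 were lowest in control 2, where 13.8% were.

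Microglial genes summed to 28.2 to 60.7 CPM over 11 genes. Csf1r, the receptor that microglia need to survive, had 12.2, 10.2, 7.19 and 11.0 CPM, and C1qb, of complement, had 5.04, 3.60, 2.60 and 3.96 CPM. Of the 10 genes of at least 1 CPM, 9 were lowest in control 3, against 34.2% of all genes. The list level ranged over 1.02, and over 0.59 without control 3. Mrc1 and Lyve1, which mark macrophages of the brain's borders, varied more than the rest. Mrc1 had 17.3, 5.05, 3.48 and 14.8 CPM, an order of libraries like that of the collagens. Of glial lineages that arise later, the oligodendrocyte list had 2 of 5 genes of at least 10 CPM. Mbp, a myelin gene, was the highest of them with 21.9, 24.8, 27.4 and 26.0 CPM. Olig2 had 4.51, 7.17, 19.1 and 6.31 CPM, highest in control 3 as the ventral genes were, and Aqp4, the water channel of astrocytes, ran from 0.840 to 1.40 CPM. Surface ectoderm had 3 of 7 markers in the table, none of at least 1 CPM, and no Hox gene was analysed here.

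Glycolytic genes varied more than genes of like level in general. Of 16, 7 were in the top 10% of spread, against 3 of 13 HIF-1 targets and 3 of 18 Notch genes. All 16 glycolytic genes reached 10 CPM, and 11 were highest in control 4 and 12 lowest in control 3, against 34.5% and 34.2% of all genes. The list level ranged over 0.39, and over 0.13 without control 3. Gapdh, often taken as a reference, had 1091, 1027, 885 and 1342 CPM, and Ldha, which makes lactate, had 406, 346, 254 and 533 CPM. Aldoc and Pfkp departed from that order. Aldoc had 142, 107, 48.6 and 97.6 CPM, and Pfkp had 70.4, 80.2, 106 and 44.1 CPM. Of 14 HIF-1 targets outside glycolysis, Vegfa was steady at 65.1 to 71.9 CPM, and Ndrg1 had 33.1, 30.6, 36.1 and 8.19 CPM, lowest in control 4. The 18 Notch genes ranged over 0.24 as a list and over 0.05 without control 3, with Rbpj, the transcription factor of the pathway, at 131 to 148 CPM and Hey2, a target also of vessels, at 6.58, 3.18, 1.64 and 6.30 CPM.

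Several genes of stress responses were low in every library. Among immediate early genes, which are switched on within minutes of stimulation, Fos ran from 0.337 to 0.512 CPM, Egr1 from 1.69 to 3.45 CPM and Arc from 1.82 to 3.64 CPM, and Jun alone exceeded 100 CPM on average. Of 9 heat shock response genes, 3 had a mean under 1 CPM and 5 a mean of at least 100 CPM. Hspa1a ran from 0.124 to 0.325 CPM and Hspb1 from 0.206 to 0.287 CPM. The constitutive members were abundant, Hsp90ab1 with a mean of 2234 CPM and Hspa8 with 1589, 1235, 1395 and 1175 CPM. Neither list had a member in the top 10% of spread. Noncoding RNAs of the nucleus differed more. Meg3, an imprinted RNA of neurons, had 206, 267, 524 and 176 CPM, and Malat1 had 1488, 1148, 1821 and 1068 CPM, both highest in control 3. The level of the 9 noncoding RNAs ranged over 0.52, and over 0.19 without control 3.

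Over all 13765 genes of at least 1 CPM, the median SD of log2 CPM was 0.16, with quartiles of 0.09 and 0.28. The SD was under 0.1 in 3895 genes, at least 0.5 in 1201 and at least 1 in 168. It was smaller at higher levels, so genes were ranked within 20 bins of like level to find the 1380 in the top 10%. Of these, 856 were highest in control 3 and 783 were lowest in control 4. Over all 13765 genes, 33.8% were highest in control 3 and 35.3% lowest in control 4. The common biological coefficient of variation, the relative spread beyond counting error in edgeR's model, was 0.217. It was 0.183 without control 3 and 0.194 without control 4, and 0.234 and 0.245 without controls 1 and 2.

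**Figure D4:**
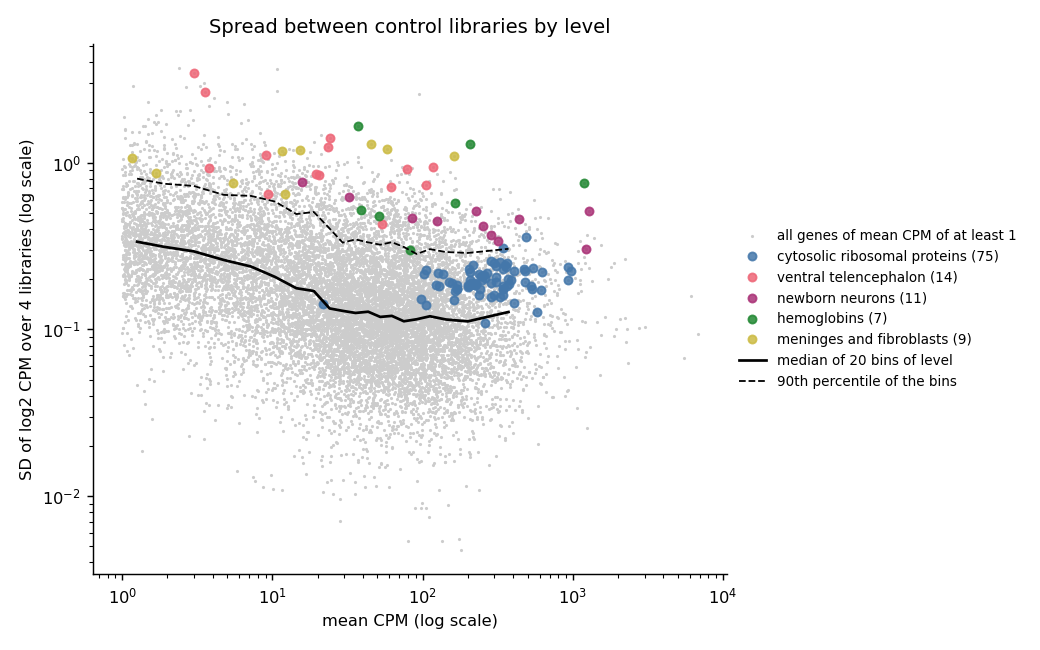
SD of log2 CPM over the 4 control libraries against mean CPM, both on log scales, for the 13765 genes of mean CPM of at least 1. Coloured points are members of 5 groups, and the lines join the medians and 90th percentiles of 20 bins of level. Ribosomal proteins lie near or above the median line, and hemoglobins, ventral telencephalic and newborn neuron genes lie near or above the 90th percentile.

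The families of least spread were those of basic cell machinery. None of 20 hnRNP, 51 translation initiation factor, 44 proteasome, 75 mitochondrial ribosomal and 11 SR splicing factor genes was in the top 10%, and their median SDs were 0.09 to 0.11. Of 337 Zfp genes 8 were. The 10 genes of smallest SD among the 10061 of at least 10 CPM were Zfp148, Ubn1, Dctn5, Nvl, Exo5, Senp2, Cnot3, Atp1b3, Sppl2a and Elp3. Zfp148, a zinc finger factor, had 180.2, 181.5, 181.1 and 180.4 CPM, and each of the 10 had a ratio of highest to lowest library of at most 1.01. Choosing the smallest of so many SDs favours low values, and these genes were not checked elsewhere. Of 13 common reference genes, Tbp, of the basal transcription machinery, had the smallest SD with 78.3, 76.9, 77.0 and 79.4 CPM. Actb had 1772, 1866, 1817 and 1380 CPM, lowest in control 4, whereas Gapdh was highest there. B2m had the largest SD of the 13, with 11.9, 9.15, 7.30 and 13.8 CPM.

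The 20 genes of largest SD among the 10061 fell into a few kinds. First were pseudogenes. Gm6969 had 13.9, 28.7, 0.206 and 0.275 CPM, separating controls 1 and 2 from 3 and 4, and Gm15459 had 9.10, 186, 7.64 and 178 CPM, separating controls 2 and 4 from 1 and 3. Reads of such copies may match their parent genes equally well, which was not tested, and their levels are uncertain. A second kind was red cell and connective tissue genes, with Hbb-bh1, Hba-x, Col1a1, Col1a2, Lum, Dcn, Colec12 and Mrc1. Lum and Dcn are proteoglycans of fibroblasts. Lum had 26.3, 8.46, 4.45 and 21.6 CPM and Dcn 22.6, 7.04, 3.36 and 13.2 CPM. Genes of region and neuronal type made up most of the others.

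Isl1 and Lhx6 were among them, with Adarb2, a gene of some interneurons, which had 4.45, 7.86, 31.7 and 7.37 CPM. Zic4, a zinc finger factor of the dorsal midline, was highest in control 2 and had 10.2, 34.7, 5.60 and 20.7 CPM. Dct, an enzyme of melanin synthesis, was low in control 3 alone with 11.3, 16.2, 0.317 and 15.1 CPM. Ano1, a chloride channel, had 4.05, 12.5, 36.1 and 32.1 CPM. Rasgrp1, an activator of Ras, had 4.46, 16.1, 5.48 and 21.5 CPM. Nos1, which makes nitric oxide in neurons, was low in control 4 alone with 25.1, 24.9, 28.8 and 5.55 CPM. E330013P04Rik, a noncoding gene, had 27.1, 12.6, 4.14 and 31.8 CPM. No order of libraries was shared by all 20.

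**Figure D5:**
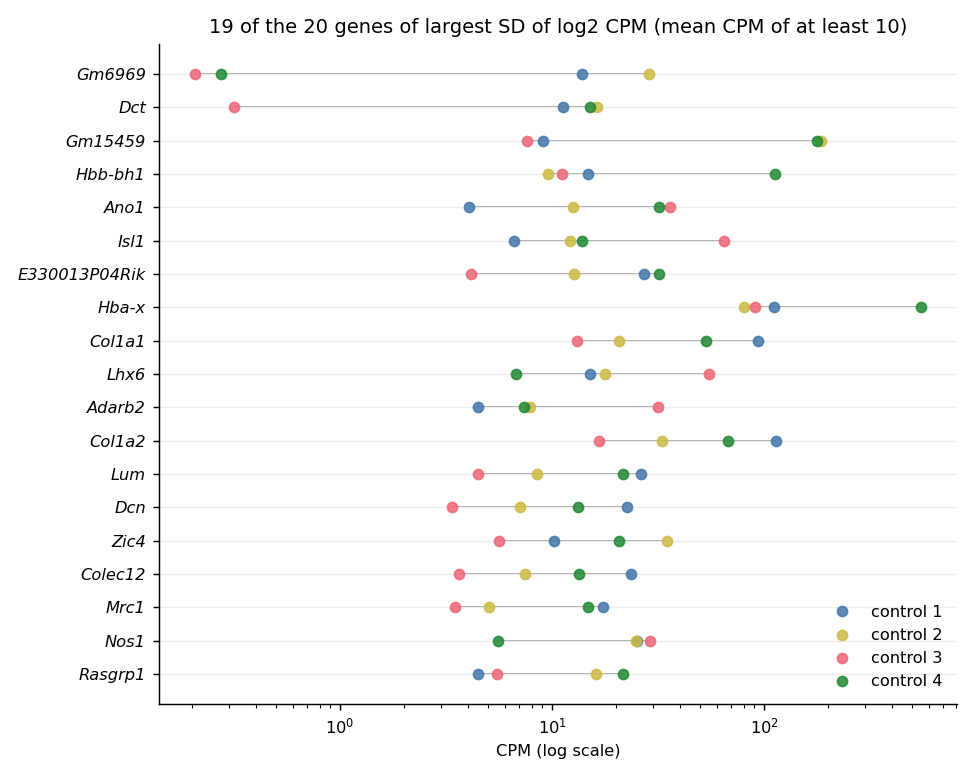
CPM, on a log scale, of 19 of the 20 genes of largest SD of log2 CPM among genes of mean CPM of at least 10, in each control library, with lines from the lowest to the highest. Isl1, Lhx6 and Adarb2 are highest in control 3, Hba-x and Hbb-bh1 in control 4, and the collagens in control 1.

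Some genes were far higher or far lower in 1 library than in the others. Among genes of at least 1 CPM, 32 had a gap of more than 2.5 on the log2 scale between neighbouring libraries. They were chosen after their values were seen, for that gap, and are a description. In control 3, Nkx2-1 and Lhx8 were joined by Gbx1, a homeobox factor of the ventral forebrain, with 0.658, 0.694, 9.53 and 1.00 CPM, and Oprm1, the mu opioid receptor, with 0.289, 1.5, 12.1 and 1.14 CPM. In control 2, Fgf17, a growth factor of the rostral and midline forebrain, had 0.337, 7.80, 0.523 and 0.50 CPM, and Rspo1, an enhancer of Wnt signals, had 0.209, 5.21, 0.110 and 0.425 CPM. Bmp7, a signal of the dorsal midline and meninges, was low in control 3 alone with 11.6, 9.72, 1.29 and 10.4 CPM. Tfap2d, a transcription factor, was low in control 4 alone with 7.56, 8.12, 9.76 and 1.22 CPM, and Thy1, a surface protein of neurons, likewise with 1.70, 1.55, 1.78 and 0.175 CPM. Control 1 held no gene of this kind that was high in it alone.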

How the data were processed

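RNA of lateral cortex at E12.5 was sequenced by the study as 150-base paired-end stranded libraries. The authors aligned the reads with STAR to mm10 and counted them per gene with HTSeq 0.9.1 in union mode, and they removed genes with too few counts over all 6 samples, so the deposited values are whole counts of 17068 genes. The strand setting is not given in the sources used here. The authors also deposited log2-scale values from the variance-stabilizing transformation (VST) of DESeq2 1.30.1, made over all 6 samples, and these served as an alternative here.

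Only the 4 control libraries were used. The 2 Foxp1cKO libraries entered only through the authors' filter on low counts and their VST values, both made over all 6 samples. There is 1 group, so no test was run and no p-value is given. CPM and log2 CPM (prior count 2) were computed with edgeR 4.0.16 in R 4.3.3 on TMM-scaled library sizes, and the spread was computed over genes of mean CPM of at least 1. The top 10% of spread was taken within 20 bins of mean level. Exon lengths and types came from GENCODE M21, which held 17047 of the 17068 genes, and 21 had no length. Start regions came from the RefSeq table. Tables and plots were made with Python 3.11.15, pandas 2.3.3 and matplotlib 3.10.9, and the computation of spread was tested on simulated data.

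Named genes were those of the lists, the 20 of highest mean CPM, the 10 of highest level per length, the 20 of largest and 10 of smallest SD among genes of mean CPM of at least 10, the highest member of each family, and Foxp1. A few of them are not reported here. The 29 lists held 316 entries, of which 291 were in the table. Members and lists were chosen with earlier results of these data known. Alternatives were total counts or DESeq2 1.42.0 size factors in place of TMM, a prior count of 0.5, the deposited VST values, other filters on low levels, levels per length and leaving out each library. Counts of members highest or lowest in a library under other scalings were added after seeing the data.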

Additional observations from a re-analysis of the deposited data

Results flagged for a closer look

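Of 208 values examined, 23 had 1 library whose distance to the nearest other exceeded 0.829 of the whole range over the 4 libraries, Dixon's limit for 4 samples. Chance alone marks about 5% of groups of 4, and many of the genes examined were named for a large spread or gap, so the share of 11.1% is not a test.

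Control 3 lay above the others in 9 of the values and below them in 1. It had 250.5 CPM of Gad2 against 57.5 to 83.9 in the others, 64.8 CPM of Isl1 against 6.61 to 13.8, 31.7 CPM of Adarb2 against 4.45 to 7.86, and 30.9 CPM of Nefl against 9.89 to 12.1. Nkx2-1 had 13.2 CPM there against 0.212 to 0.597, Lhx8 11.6 CPM against 0.0321 to 0.250, Gbx1 9.53 CPM against 0.658 to 1.00 and Oprm1 12.1 CPM against 0.289 to 1.5. The share of Snhg host genes, which carry small nucleolar RNAs in their introns, was 0.0341% in control 3 against 0.0281% to 0.0290%. The family did not move as a whole. Of its 12 members of at least 1 CPM, 3 were highest in control 3 and 6 in control 4. Of all genes, 33.8% and 34.5% were highest in these libraries. Snhg14, its highest member, had 77.4, 89.1, 129 and 59.9 CPM in controls 1 to 4. The level of the dorsal patterning list was 6.23 in control 3 against 6.69 to 6.75 as mean log2 CPM.

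Control 4 lay above the others for the hemoglobin share, at 0.352% against 0.107% to 0.144%. Hbb-y had 2302 CPM there against 757 to 929, Hba-x 550.1 CPM against 80.5 to 111, Hbb-bh1 113 CPM against 9.59 to 14.7 and Slc4a1 70.6 CPM against 15.2 to 22.2. It lay below the others for Nos1 with 5.55 CPM against 24.9 to 28.8 and for Thy1 with 0.175 CPM against 1.55 to 1.78.

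Control 1 had 69.1 CPM of Kdr against 45.4 to 48.6, 62.0 CPM of mt-Nd6 against 49.2 to 50.002, and 286 CPM of Notch1 against 311 to 315. Control 2 had 395 CPM of Reln against 321 to 331, 7.80 CPM of Fgf17 against 0.337 to 0.523 and 5.21 CPM of Rspo1 against 0.110 to 0.425. The differences of Kdr, mt-Nd6, Notch1 and Reln were small beside those of controls 3 and 4.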

How the results depend on the processing

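No paired analysis was possible because only 1 group was used and its results come from no test. Of the results that answer a comparison, 139 alternatives gave the same value within the set limits and 12 moved, and of the others 1218 gave the same and 162 moved. Genes of at least 1000 CPM numbered 33 in place of 50 when the level had to be reached in every library. Counted per length, the shares were 5.95% for ribosomal proteins, 4.27% for mitochondrial mRNAs and 1.12% for hemoglobins in place of 2.36%, 1.28% and 0.179%, since these transcripts are short. With each library left out in turn, the genes in the top 10% of spread ranged from 4 to 5 for radial glia (3 with all libraries), 9 to 14 for ventral telencephalon (lowest without control 3), 5 to 10 for erythroid cells (lowest without control 4), 5 to 9 for meninges (lowest without control 1) and 8 to 14 for presynapse (lowest without control 4). With genes of at least 10 CPM only, the counts were 5 for radial glia, 9 for ventral telencephalon and 5 for meninges, of fewer genes entered. Of 56 lists, the library of highest level was kept in 49 and of lowest level in 52 under total counts, in all 56 under DESeq2 size factors and a prior count of 0.5, and in 54 and 56 under VST values. The lists that changed order under total counts were Sox factors, kinesins, solute carriers, Snhg host genes, Gm and Rik models, Cajal-Retzius cells, HIF-1 targets and heat shock response. No order of list level is given for them. With 4 libraries of 1 group, a spread is an estimate of low precision.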

Other observations

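Several families of neuronal excitability and growth were highest in control 3. Of 64 potassium channel genes of at least 1 CPM, 41 were highest in control 3, as 33.8% of all genes were, and 35 lowest in control 4, as 35.3% of all genes were, and the family level ranged over 0.68, or 0.46 without control 3 and 0.45 without control 4. Of 12 GABA-A receptor genes, 9 were highest in control 3 and 8 lowest in control 4, and the level ranged over 1.10, or 0.82 without control 3 and 0.74 without control 4. Of the 4 stathmins, which regulate microtubules, 3 were highest in control 3, and Stmn1 was the most abundant with 761 CPM and the least variable. Stmn2 is also in the list of newborn neurons.

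Families of proliferating cells had the opposite order. All 6 subunits of the MCM helicase were highest in control 4 and lowest in control 3, where 34.5% and 34.2% of all genes were. These 6 genes are also members of the S phase list. Of 9 HMG chromatin proteins, 7 were highest in control 4 and 9 lowest in control 3, with Hmgn2 the most abundant at 558 CPM. Hmga2 and Hmgb2 are also in the radial glial and G2/M lists. Apart from these families, 11 of 15 Wnt ligands and Frizzled receptors were lowest in control 3 and 8 highest in control 4. Their level ranged over 0.72, or 0.20 without control 3. Fzd3, the receptor of most counts with 376 CPM, had the smallest SD of the family. Ephrins and Eph receptors showed no common order, with 7 of 20 highest in control 3 and 5 in control 4. These counts are descriptions of 4 libraries.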
